A study of Mus musculus with 8 samples.

Results

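Oxidative phosphorylation is the last stage of respiration, and most of its subunits are encoded in the nucleus. The genes described here were chosen by symbol alone: every mouse gene whose symbol begins with Nduf, Sdha, Sdhb, Sdhc, Sdhd, Uqcr, Cox4, Cox5, Cox6, Cox7, Cox8 or Atp5, together with Cyc1, and without pseudogenes. This rule matched 102 gene symbols, of which 88 were among the 12404 genes of the count table. Of the 88, 80 had enough reads in enough libraries to enter the test of 8645 genes. By role, the 88 were 7 core and 28 accessory subunits of complex I, 8 complex I assembly factors, 4 subunits and 3 assembly factors of complex II, 9 subunits of complex III, 13 of complex IV and 16 genes of the ATP synthase, Atp5s included.

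The cells were TM3, a mouse cell line of Leydig origin; Leydig cells lie between the tubules of the testis and make testosterone. Bisphenol A (BPA), a monomer of polycarbonate plastic with estrogen-like activity, had been given to the exposed cells, and the labels name the others as normal. Neither a dose nor an exposure time is among the labels, and nothing used here says which vehicle the normal cells received. RNA-seq was made from 2 libraries of BPA-exposed and 2 of normal cells, and MeRIP-seq, which enriches RNA fragments carrying N6-methyladenosine (m6A) with an antibody, from 2 libraries of each. Nothing in the labels says that libraries 1 and 2 of a group came from separate cultures, so the p-values below cover only library-to-library spread, which may be technical.

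In the inner mitochondrial membrane, complex I (NADH dehydrogenase) and complex II (succinate dehydrogenase) pass electrons to ubiquinone, complex III (cytochrome bc1) passes them on to cytochrome c, and complex IV (cytochrome c oxidase) hands them to oxygen. Complexes I, III and IV pump protons as they do so, and complex V, the ATP synthase, lets the protons back through a rotating ring and makes ATP. In Leydig cells this membrane also holds the enzyme that begins steroid synthesis by cleaving the side chain of cholesterol.

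The 4 RNA-seq libraries held between 6305121 and 10455643 reads in genes. Counts were unevenly filled, and more so after BPA: 10 or fewer reads were found for 49.1% and 54.9% of all genes of the table in BPA libraries 1 and 2, against 28.3% and 22.8% in normal libraries 1 and 2. Across the 80 tested members the Spearman correlation was 0.556 for the BPA pair, 0.671 for the normal pair and between 0.545 and 0.626 for pairs of 1 BPA and 1 normal library. These correlations are across genes, which are not independent replicates. Of 11 Leydig markers, 2 (Gata4 and Scarb1) were among the genes of the table; 9 others, the steroidogenic genes Star and Cyp11a1 among them, were not among its rows. On the scale of counts-per-million (CPM) these summed to 195 and 61.9 in BPA against 39.7 and 32.6 in normal cells. Of the Sertoli markers, 4 of 7 were in the table, and they summed to 280 and 135 CPM in BPA against 155 and 302 CPM in normal cells, mostly from Wt1 (1952 and 516 reads against 1563 and 2307). Des and Acta2 of muscle summed to 58.2 and 237 CPM in BPA against 6.93 and 45.1 in normal cells, and Cd68 and Lyz2 of macrophages to 20.3 and 81.5 against 10.9 and 7.57. The germ cell marker Stra8 reached 5.61 CPM in BPA library 2 alone, and no endothelial marker was in the table. The Leydig, muscle and macrophage sums were higher in both BPA libraries, whereas the Sertoli sums overlapped. In BPA each of these higher sums came almost wholly from a single gene. These were Scarb1 (1677 and 331 reads against 458 and 150), Acta2 (498 and 1270 against 80 and 352) and Cd68 (174 and 436 against 0 and 59). Gata4 (0 and 0 reads against 0 and 104) and Lyz2 (1 and 0 against 126 and 0) were not higher in BPA. The part of these markers in the results below was not tested.

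Some sequence features that the choice by symbol did not use were more frequent in members' promoters, each in a minority of their windows. RefSeq promoter windows of 300 bases (250 before to 50 after the gene start, mouse build GRCm38.p6) were at hand for 78 of the 102 genes, in 83 windows, beside 32851 windows of all genes. The letters GCATGCGC, the core of the site of NRF1 (nuclear respiratory factor 1), stood on either strand of 14.5% of the members' windows and 2.71% of all windows. The ETS letters CCGGAAG, which the GA-binding protein GABP can bind, stood in 25.3% against 8.86%, the YY1 letters AANATGGCG in 14.5% against 2.38%, and the ERRalpha letters AAGGTCA in 9.64% against 4.72%. General promoter elements lay closer to all windows, with the TATA letters TATAAA in 10.8% against 13.6% and the letters CCAAT in 42.2% against 37.4%. No motif contains the letters of another, and a window could hold several of them. A match is a description of letters, not evidence of binding. The comparison is with windows of all genes, whether or not they were read in these cells.

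Stretches of 4 of these promoters are shown because together they carry each kind of match and belong to genes that behaved differently in the counts. Each begins 250 bases before the gene start and ends 30 bases after it, so that base 251 is the start, and capitals mark matches to the NRF1, ETS, YY1 and ERRalpha letters.
Atp5l: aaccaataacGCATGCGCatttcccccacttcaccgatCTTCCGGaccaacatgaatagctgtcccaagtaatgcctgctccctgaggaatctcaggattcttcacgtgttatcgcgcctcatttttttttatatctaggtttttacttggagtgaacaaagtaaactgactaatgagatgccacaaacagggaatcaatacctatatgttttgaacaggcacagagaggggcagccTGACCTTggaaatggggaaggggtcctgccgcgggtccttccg
Atp5b: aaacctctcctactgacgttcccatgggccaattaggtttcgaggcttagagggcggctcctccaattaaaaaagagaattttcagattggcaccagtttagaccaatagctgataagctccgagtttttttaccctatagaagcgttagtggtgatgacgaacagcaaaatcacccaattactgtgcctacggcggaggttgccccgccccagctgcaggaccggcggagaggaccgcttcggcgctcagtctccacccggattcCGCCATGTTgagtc
Cox8a: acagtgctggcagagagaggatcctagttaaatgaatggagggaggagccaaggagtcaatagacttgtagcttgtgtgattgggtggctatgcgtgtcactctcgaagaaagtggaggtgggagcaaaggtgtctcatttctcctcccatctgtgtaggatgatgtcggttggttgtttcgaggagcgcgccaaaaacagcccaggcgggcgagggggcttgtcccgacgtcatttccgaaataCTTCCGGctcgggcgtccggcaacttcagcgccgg
Ndufaf8: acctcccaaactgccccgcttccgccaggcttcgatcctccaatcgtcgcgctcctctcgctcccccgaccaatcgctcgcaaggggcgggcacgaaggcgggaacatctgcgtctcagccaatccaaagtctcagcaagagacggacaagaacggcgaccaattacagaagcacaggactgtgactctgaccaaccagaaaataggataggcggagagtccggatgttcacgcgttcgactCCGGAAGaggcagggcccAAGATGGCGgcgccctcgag
In Atp5l (chr9:44920713-44920992, minus strand), the NRF1 letters GCATGCGC lie at bases 11 to 18, the reverse ETS letters CTTCCGG at bases 39 to 45, and the reverse ERRalpha letters TGACCTT at bases 238 to 244; a second ETS match, at bases 275 to 281, runs past the end of the printed stretch and is not in capitals. The Atp5b stretch (chr10:128083057-128083336, plus strand) has 1 match, the reverse YY1 letters CGCCATGTT at bases 267 to 275. In Cox8a (chr19:7217587-7217866, minus strand) the ETS letters lie across the start at bases 246 to 252, and a further match at bases 283 to 289 falls outside the printed stretch. The Ndufaf8 stretch (chr11:120098684-120098963, plus strand) has the ETS letters at bases 243 to 249 and AAGATGGCG, a YY1 match, at bases 261 to 269.

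**Figure D1:**
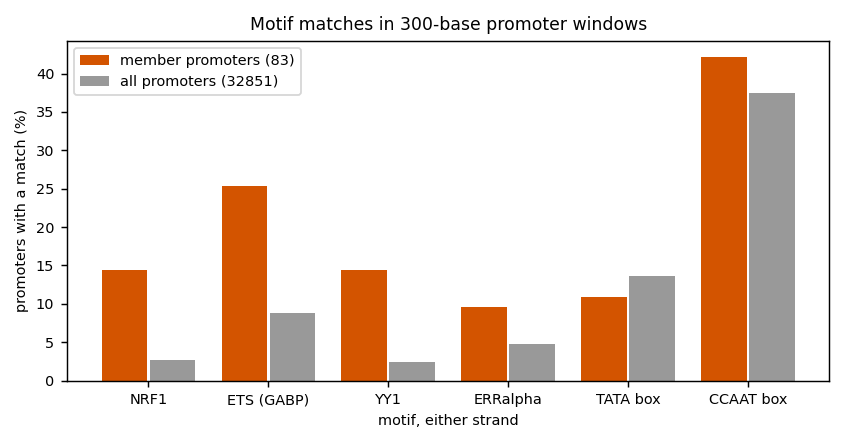
Share of 300-base promoter windows with at least 1 match to each motif on either strand, for the 83 windows of member genes (orange) and all 32851 windows (grey), in percent. The 4 motifs at the left were more frequent among members, from 9.64% against 4.72% for ERRalpha to 14.5% against 2.38% for YY1, while TATA and CCAAT shares lay closer together.

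RNA of the 80 tested members was spread to both sides between BPA and normal cells, and no member passed the adjusted threshold. By the quasi-likelihood F test of edgeR, adjusted after Benjamini and Hochberg over all 8645 genes, 0 members and 0 genes (0%) had an adjusted p under 0.05, and the smallest adjusted p was 0.372. By DESeq2, 264 genes passed (3.24% of 8142 with an adjusted p), and 1 of 75 members with an adjusted p did, Atp5d. At an unadjusted p under 0.05 in edgeR, 5 members were lower in BPA (6.25%, against 7.23% of all tested genes) and 2 were higher (2.5%, against 2.41%). Both shares lay near those of all genes. These counts depended on single libraries: without BPA library 1 or 2, 12 and 13 members had an unadjusted p under 0.05, and without normal library 1 or 2, 0 and 0. As shares these were 15% and 16.25% of members against 20.1% and 18.6% of all tested genes, and 0% against 0.578% and 1.55%. The genes called in edgeR were 234, 229, 1 and 0 in the same order, with 2 members among the 234 (Atp5s and Ndufaf2) and no member among the others.

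Signs of the fitted changes were 35 positive and 45 negative, and the median log2 fold change of the members was -0.26, with -0.02 over all tested genes. Setting genes with 0 reads in a group to their bound left the members' median at -0.26. Scaled by DESeq2's size factors rather than by TMM, the median of all genes moved up by 0.14 on the log2 scale, the members' median became -0.11 and the signs 38 and 42. Without BPA library 1 the median was -1.10 for members and -0.80 for all genes, without BPA library 2 -0.46 and -0.30, without normal library 1 -0.03 and 0.08, and without normal library 2 -0.16 and 0.11. The 2 library pairs did not overlap for 27 members that were lower in both BPA libraries (33.8%, against 27.2% of all tested genes) and for 6 that were higher in both (7.5%, against 12.8%). Those 6 were Ndufa2, Ndufaf2, Ndufaf5, Cox7b, Atp5g3 and Atp5s.

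Replicate libraries differed widely for many members. One BPA library held 100 or more reads and the other 10 or fewer for 23 of the 88 members (26.1%, against 24.7% of all 12404 genes), and library 1 was the higher in 14 of them. The same split occurred between the normal libraries for 13 members (14.8%, against 15.5%), with library 1 the higher in 8. A member at 100 or more reads in all 4 libraries was found 27 times (30.7%, against 25.8% of all genes). Every such gene entered the test. Among tested genes these were 27 of 80 members and 3202 of 8645 genes, a smaller share for the members. Fewer cells of a kind and less RNA per cell cannot be told apart in such bulk libraries.

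**Figure D2:**
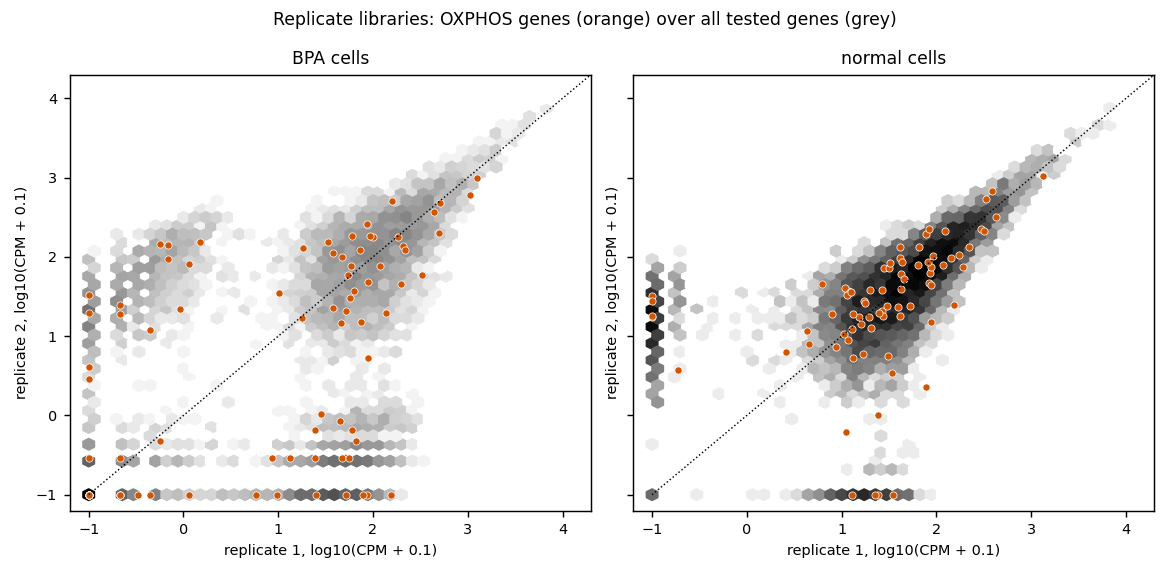
Level of each gene in library 1 (x axis) against library 2 (y axis) of BPA cells (left) and normal cells (right), as log10 of CPM plus 0.1, with all tested genes as grey hexagons and 79 of the 80 tested members as orange points. In BPA cells 23 of the 88 members had 100 or more reads in 1 library and 10 or fewer in the other, and they sit along the edges of the left panel. In normal cells 13 members were split in this way, of which those read in too few libraries to be tested are not drawn.

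A smaller set was read in normal cells and nearly unread after BPA. For 8 of the 88 members both normal libraries held 100 or more reads and both BPA libraries 10 or fewer (9.09%, against 6.16% of all genes of the table): Ndufb7, Ndufb9, Ndufc1 and Ndufs4 of complex I, Cox5a and Cox8a of complex IV, and Atp5d and Atp5e of the ATP synthase. Among tested genes these were 8 of 80 members and 764 of 8645 genes, shares closer together. None of the 8 members passed the adjusted test of edgeR. In all, 9 members had 0 reads in both BPA libraries, and 6 of these (Ndufa10, Ndufb7, Ndufb9, Ndufaf3, Ndufaf8 and Cox8a) had reads in both normal libraries. The other 3 (Ndufb6, Cox7a2 and Atp5mpl) were read in 1 normal library only, at 28, 197 and 64 reads. In the opposite direction 2 members, Ndufb4 and Ndufb4c, had 0 reads in both normal libraries, with at most 2 reads in a BPA library. The shares of all genes at 0 reads in both libraries of a group are not given here. At 10 or fewer reads were 39.8% and 45.5% of members in BPA libraries 1 and 2, against 49.1% and 54.9% of all genes. In normal libraries 1 and 2 these were 11.4% and 12.5%, against 28.3% and 22.8%.

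**Figure D3:**
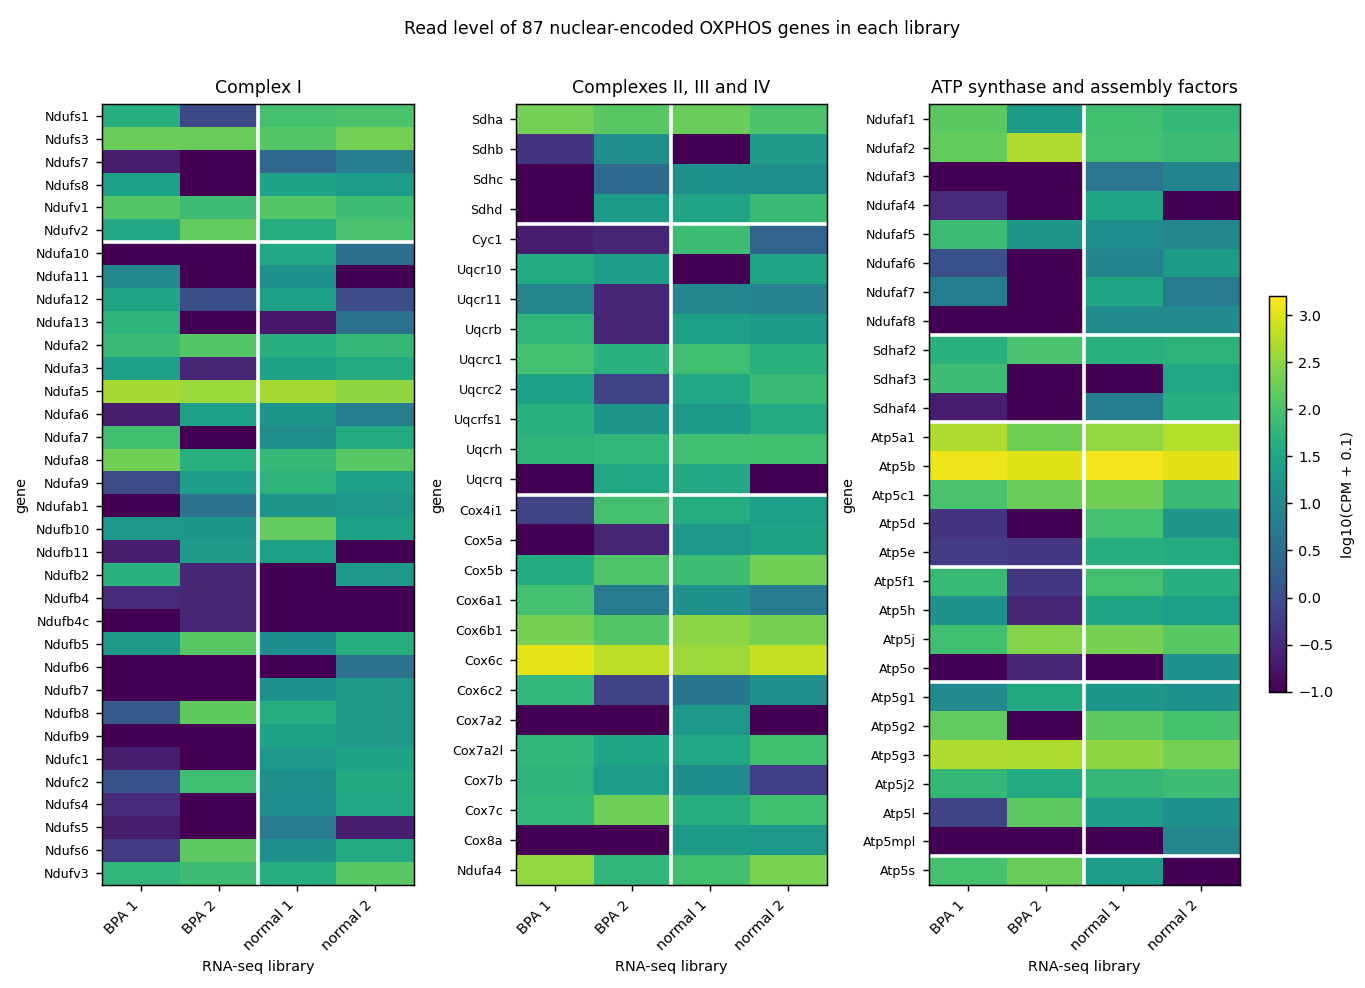
Level of 87 of the 88 members of the count table in each RNA-seq library, as log10 of CPM plus 0.1, with white lines between complexes or their parts. Darkest cells are 0 reads; Ndufb7, Ndufb9 and Cox8a are dark in both BPA columns, while Ndufa5, Cox6c and Atp5b are bright in all 4.

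Summed over its members, the nuclear-encoded set took 0.716% and 0.555% of the reads of BPA libraries 1 and 2, and 0.7045% and 0.663% of normal libraries 1 and 2. The means were 0.636% ± 0.114 (SD, n = 2) for BPA and 0.684% ± 0.0296 (SD, n = 2) for normal cells, a difference smaller than the spread between the BPA libraries. No test of 2 against 2 libraries can give an exact permutation p below 0.333, so the sums are given as descriptions. Structural subunits of complex I took 0.147% and 0.154% of BPA reads and 0.1709% and 0.1715% of normal reads, and those of complex II 0.0203% and 0.0144% against 0.0234% and 0.0215%. As unscaled shares of reads, the BPA libraries lay below the normal ones in both complexes. The same held in complex III by a narrow gap (0.0306% and 0.0152% against 0.0398% and 0.0310%). Complex IV (0.192% and 0.105% against 0.115% and 0.164%) and complex V without Atp5s (0.269% and 0.197% against 0.318% and 0.242%) overlapped. The complex I assembly factors lay the other way, with 0.0368% and 0.0454% in BPA and 0.0294% and 0.0197% in normal cells, a sum that rests mostly on Ndufaf1 and Ndufaf2. Each sum leans on its most read genes, and read counts were not divided by transcript length. These shares carry no TMM scaling, unlike the CPM values used elsewhere. The TMM factors were 0.9857 and 0.8559 for BPA libraries 1 and 2 and 1.122 and 1.057 for normal libraries 1 and 2. Scaling thus raises the BPA sums against the normal ones, and the order of the libraries in CPM differs from that in shares. In CPM the BPA and normal sums of complexes I and III overlapped, and those of complex II all but touched. The sum of the whole set was higher in both BPA libraries in CPM, narrowly so in library 2.

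Complex I takes electrons from NADH through a flavin and a chain of iron-sulfur clusters, and its 7 nuclear-encoded core subunits carry these centres. The core had 3 positive and 4 negative changes, with a median log2 fold change of -0.00106 and none with an unadjusted p under 0.05. Ndufs3 held 1562 and 940 reads in BPA libraries 1 and 2 and 1429 and 1660 in normal libraries 1 and 2. Ndufv1, which binds NADH and the flavin, held 1010 and 415 reads against 1350 and 623. For both genes the BPA and normal libraries overlapped on the CPM scale, and the log2 fold changes were 0.11 ± 0.72 and -0.00106 ± 0.90 (SE).

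Ndufs1, the largest iron-sulfur subunit, held 381 and 4 reads in BPA libraries and 1053 and 806 in normal ones. Both BPA libraries lay below the normal ones, but as a ratio the BPA pair (44.3 and 0.748 CPM) differed by more than the group means (22.5 and 97.3 CPM), and the log2 fold change was -1.86 ± 1.27 (SE). Ndufs7, which holds the last cluster before ubiquinone, was thinly read, with 1 and 0 reads in BPA libraries and 29 and 48 in normal ones. Its partner in that part of the enzyme, Ndufs8, held 214 and 0 reads in BPA against 310 and 160, so that BPA library 1 lay between the normal libraries on the CPM scale and BPA library 2 at 0.

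Accessory subunits surround the core and are needed for its assembly and stability. Of the 28 counted, 24 were tested, 11 positive and 13 negative, with a median log2 fold change of -0.32; 9 were lower in both BPA libraries (37.5%, against 27.2% of all tested genes) and 1, Ndufa2, was higher in both (4.17%, against 12.8%). Ndufa5 was the most read of them, with 3759 and 1991 reads in BPA libraries and 4942 and 2459 in normal ones (log2 fold change 0.12 ± 0.53, SE). Ndufa8 held 1714 and 245 reads against 753 and 1048, with the lowest and highest CPM both in BPA. Ndufa2 held 622 and 656 reads against 490 and 480, a log2 fold change of 0.89 ± 1.05 (SE), which is smaller than its error.

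Ndufb9, a subunit of the membrane arm, had 0 reads in both BPA libraries and 312 and 139 in normal cells. Taking 3 counts over the group as the floor that 0 reads allow, the gene was at least 108-fold lower if counting were the sole source of error, and edgeR gave an unadjusted p of 0.0498 and an adjusted p of 0.372. Ndufb7, of the same arm, had 0 and 0 reads against 152 and 146, lower by at least 71.1-fold (counting error alone), with an unadjusted edgeR p of 0.0504. Both genes lay apart in all 4 libraries, and neither passed the adjusted test.

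Ndufa10, also of the membrane arm, had 0 and 0 reads against 391 and 26, lower by at least 99.5-fold (counting error alone), and normal library 1 supplied most of that bound. Ndufc1 had 1 and 0 reads against 198 and 214, and Ndufs4, whose loss causes complex I deficiency, 2 and 0 against 130 and 258. Their pooled ratios of BPA to normal CPM were 0.00339 (95% counting interval 8.6e-05 to 0.0190) for Ndufc1 and 0.00720 (0.000869 to 0.0262) for Ndufs4. These intervals cover counting error only and leave out the spread between libraries.

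Complex I subunits with an m6A peak in the authors' deposited table were also uneven. Ndufb10 held 151 and 89 reads in BPA against 1783 and 190, lower in both BPA libraries, with normal library 1 far above the rest. Ndufa6 held 1 and 132 reads against 193 and 45, and Ndufb2 408 and 1 against 0 and 134. The libraries of Ndufa6 and Ndufb2 overlapped, and the log2 fold change of Ndufa6 was -0.32 ± 1.75 (SE).

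The spread was as wide for other subunits of the membrane arm and the matrix arm. Ndufs6 held 4 and 774 reads in BPA against 144 and 283, and Ndufb8 12 and 812 against 473 and 140. Ndufa13, also known as GRIM-19, held 447 and 0 reads against 1 and 28, and its log2 fold change of 4.34 ± 2.31 (SE), the highest of the tested members, rested on BPA library 1. In each of these genes the 2 BPA libraries stood on either side of both normal libraries.

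Complex I assembly factors build the enzyme in stages and do not stay in it. Of the 8 counted, 7 were tested, 3 positive and 4 negative; 1 was higher and 2 were lower at an unadjusted p under 0.05. Ndufaf2, which helps to attach the NADH-binding module late in assembly, held 1368 and 2676 reads in BPA libraries and 1012 and 585 in normal ones. In CPM these were 159 and 500.1 against 87.7 and 75.0, with no overlap between BPA and normal libraries. The log2 fold change was 1.96 ± 0.78 (SE) with an unadjusted edgeR p of 0.0261 and an adjusted p of 0.372; without BPA library 1 the adjusted p was 0.0181, the lowest of 10 alternatives that ran up to 1, and the log2 fold change 2.61. Without BPA library 2 the log2 fold change was 0.96 with an adjusted edgeR p of 0.411.

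Ndufaf3, which acts on the ubiquinone-binding module, had 0 reads in both BPA libraries and 51 and 61 in normal cells, lower by at least 26.7-fold (counting error alone). Its binding partner Ndufaf4 could not be tested, with 2 and 0 reads against 327 and 0. Ndufaf8 had 0 and 0 reads against 122 and 81, lower by at least 48.5-fold (counting error alone), and an unadjusted edgeR p of 0.0396. Ndufaf5, the hydroxylase of Ndufs7 that Ndufaf8 stabilizes, went the other way, with 644 and 81 reads against 133 and 68 (log2 fold change 2.27 ± 1.47, SE). Ndufaf5 and Ndufaf8 thus lay on opposite sides, neither past the adjusted threshold.

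The remaining factors did not separate the groups as clearly. Ndufaf1, part of the complex that assembles the membrane arm, held 1170 and 103 reads against 990 and 493. Ndufaf6 held 9 and 0 against 90 and 149, and Ndufaf7, a methyltransferase, 49 and 0 against 353 and 43. Ndufaf6 was lower in both BPA libraries, whereas the libraries of Ndufaf1 and Ndufaf7 overlapped.

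**Figure D4:**
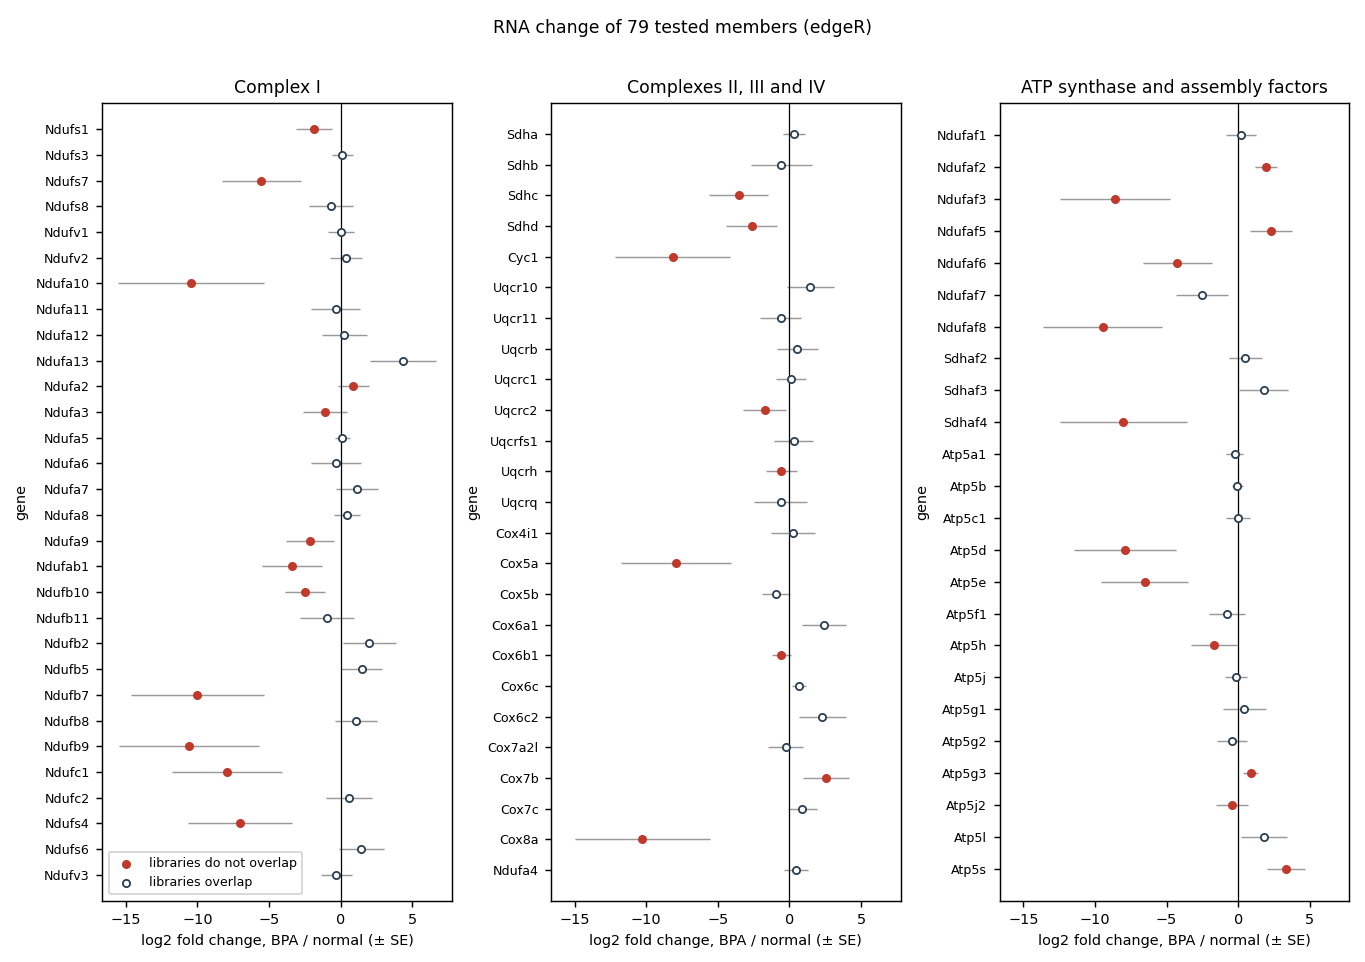
Log2 fold change of BPA over normal cells from edgeR for 79 of the 80 tested members (x axis; 0 is no change), with bars of 1 SE; red points are members whose BPA and normal libraries do not overlap in CPM. Members at 0 reads in BPA, such as Ndufb9, lie far to the left with wide bars, since their fitted value depends on the prior count, and Atp5b lies at -0.07 with a short bar.

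Complex II is the one complex of the chain with no subunit from mitochondrial DNA, and it oxidizes succinate in the citric acid cycle as well. All 4 of its subunits were tested, 1 positive and 3 negative, and the median log2 fold change was -1.62. Sdha, the flavoprotein, was the most read, with 1782 and 723 reads in BPA libraries and 1976 and 813 in normal ones (log2 fold change 0.32 ± 0.75, SE). The membrane anchors Sdhc (0 and 15 reads against 148 and 96) and Sdhd (0 and 104 against 322 and 571) were lower in both BPA libraries, with errors of 2.06 and 1.81 on log2 fold changes of -3.53 and -2.65. Sdhb, the iron-sulfur subunit, held 3 and 64 reads against 0 and 139, and its libraries overlapped.

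The symbols beginning with Sdha also brought in assembly factors of complex II. Sdhaf2, which attaches the flavin to Sdha, held 405 and 531 reads against 530 and 411, and its libraries overlapped. Sdhaf4, which binds the flavinated Sdha, held 1 and 0 reads against 71 and 351, and Sdhaf3, which protects the iron-sulfur subunit, 666 and 0 against 0 and 249. Sdhaf4 was lower in both BPA libraries, while Sdhaf3 was read in 1 library of each group only.

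Complex III passes electrons from ubiquinol to cytochrome c through the Rieske protein and cytochrome c1. Its 9 tested subunits had 4 positive and 5 negative changes with a median log2 fold change of -0.56, and none had an unadjusted p under 0.05. Uqcrc1, a core protein, held 759 and 255 reads in BPA libraries and 951 and 366 in normal ones, a log2 fold change of 0.09 ± 1.07 (SE). Uqcrh, the hinge protein that contacts cytochrome c1, held 465 and 319 reads against 939 and 666, lower in both BPA libraries by a log2 fold change of -0.56 ± 1.06 (SE). The libraries of Uqcrc1 overlapped and those of Uqcrh did not, with errors larger than either change. Uqcrc2, the other core protein, held 207 and 3 reads against 363 and 564, lower in both BPA libraries. Uqcrfs1, the Rieske protein, held 397 and 79 reads against 226 and 293.

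Cyc1, which encodes cytochrome c1, stood apart in this complex. It had 1 read in each BPA library and 901 and 17 in normal cells, so that both BPA libraries were below the normal ones while the normal libraries differed widely from each other. The pooled ratio of BPA to normal CPM was 0.00304 (95% counting interval 0.000368 to 0.0110), and its edgeR log2 fold change was -8.15 ± 4.01 (SE) and its adjusted p 0.373. Cycs, the gene of cytochrome c itself and not a member, held 783 and 1 reads against 1511 and 339.

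Complex IV reduces oxygen to water, and its nuclear-encoded subunits surround a core made in the mitochondrion. Of the 13 counted, 12 were tested, 7 positive and 5 negative, with a median log2 fold change of 0.36, the one positive median among the 5 complexes. Cox6c was the most read, with 9139 and 3271 reads in BPA libraries and 4434 and 5336 in normal ones; in CPM BPA library 2 (611) lay between the normal libraries (384 and 684). A close copy, Cox6c2, held 512 and 3 reads against 48 and 91, and reads shared between such copies make both counts uncertain.

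Cox6b1, which lies between the monomers of the enzyme dimer, held 1869 and 644 reads against 3419 and 1731. It was lower in both BPA libraries in CPM (217 and 120 against 296 and 222), and the log2 fold change was -0.59 ± 0.67 (SE). Cox5b held 325 and 592 reads against 900 and 1508, overlapping in CPM. Ndufa4, named for complex I and now counted in complex IV, held 2843 and 311 reads against 964 and 1764, with the BPA libraries on either side of the normal ones.

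Cox8a and Cox5a were nearly unread in BPA. Cox8a, the ubiquitous form of the smallest subunit, had 0 reads in both BPA libraries and 221 and 137 in normal cells, lower by at least 85.4-fold (counting error alone), with an unadjusted edgeR p of 0.0482. Cox5a, a subunit on the matrix side, had 0 and 1 reads against 200 and 204, a pooled ratio of 0.00346 (95% counting interval 8.7e-05 to 0.0194). The normal libraries were alike for both genes, and the adjusted p of each was 0.372 in edgeR.

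Some complex IV subunits come in tissue forms. The muscle and testis forms Cox6a2, Cox6b2, Cox7a1, Cox7b2, Cox8b and Cox8c, the lung form Cox4i2 and Ndufa4l2, induced by low oxygen, were not among the rows used here. Their widespread counterparts were: Cox4i1 held 5 and 496 reads in BPA against 452 and 180, and Cox6a1 754 and 28 against 152 and 40. Cox7a2 was read in normal library 1 alone (197 reads), while Cox7a2l, which joins complexes III and IV into supercomplexes, held 492 and 161 against 371 and 657. For Cox4i1, Cox6a1 and Cox7a2l the BPA and normal libraries overlapped.

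The ATP synthase couples a catalytic head in the matrix, through a shaft, to a ring that turns in the membrane. Its head had 5 tested subunits, all with a negative sign under TMM scaling and 2 positive and 3 negative with the size factors of DESeq2. Atp5b, the catalytic beta subunit, was the most read member and the one with the smallest error, with 10771 and 5310 reads in BPA libraries and 15304 and 8049 in normal ones. In CPM these were 1252 and 992 against 1326 and 1032, and the log2 fold change was -0.07 ± 0.39 (SE), turning to 0.07 with the size factors of DESeq2. Atp5a1, the alpha subunit, held 4320 and 1068 reads against 3842 and 4147, a log2 fold change of -0.25 ± 0.58 (SE). Atp5c1, the gamma subunit of the central shaft, held 852 and 959 against 2223 and 574, with overlapping libraries.

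The small delta and epsilon subunits at the foot of the same shaft were nearly unread in BPA. Atp5d, the delta subunit, held 3 and 0 reads in BPA libraries and 1010 and 118 in normal ones, a pooled ratio of 0.00371 (95% counting interval 0.000765 to 0.0109). The edgeR log2 fold change was -7.92 ± 3.55 (SE) with an unadjusted p of 0.0451 and an adjusted p of 0.372, and DESeq2 gave an adjusted p of 0.0443, the lowest of 9 alternatives, whose adjusted p ran up to 1. Without BPA library 1 the edgeR log2 fold change was -11.81 and without normal library 1 -5.95. Atp5e, the epsilon subunit, held 4 and 2 reads against 491 and 303, a pooled ratio of 0.0106 (95% counting interval 0.00386 to 0.0231) with an unadjusted edgeR p of 0.0508. Both BPA libraries lay below both normal libraries for each gene.

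The peripheral stalk holds the head still. Its 3 tested subunits had negative signs: Atp5j held 739 and 1384 reads in BPA against 2545 and 1036, Atp5f1 572 and 2 against 1018 and 339, and Atp5h 115 and 1 against 343 and 184. Atp5h alone was lower in both BPA libraries, its log2 fold change being -1.72 ± 1.61 (SE). Atp5o, the fourth, which encodes the subunit that confers sensitivity to oligomycin, had 0 and 1 reads against 0 and 113 and was not tested.

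The genes Atp5g1, Atp5g2 and Atp5g3 encode the same mature ring subunit with different import signals, and since they are close copies over the shared part, the split of reads among them is uncertain. Atp5g3 held 4337 and 2535 reads in BPA libraries and 3671 and 1667 in normal ones, in CPM 504 and 474 against 318 and 214. Both BPA libraries lay above both normal ones, and its log2 fold change was 0.87 ± 0.54 (SE) with an unadjusted edgeR p of 0.129. Atp5g2 held 1338 and 0 reads against 1662 and 754, and Atp5g1 87 and 189 against 185 and 110. None of the 3 copies passed the adjusted threshold.

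In the rest of the membrane part, Atp5j2 held 546 and 197 reads against 733 and 612 and was lower in both BPA libraries, though BPA library 1 (63.45 CPM) all but touched normal library 1 (63.52 CPM). Atp5l, whose promoter is shown above with NRF1, ETS and ERRalpha letters, held 5 and 760 reads in BPA against 236 and 99. Atp5s, a leucine-rich repeat protein known as coupling factor B, held 806 and 982 reads in BPA libraries and 261 and 0 in normal ones. Its log2 fold change was 3.33 ± 1.32 (SE) with an unadjusted edgeR p of 0.0248 and an adjusted p of 0.372; without BPA library 1 the adjusted p was 0.0302, the lowest of 9 alternatives that ran up to 1. Without normal library 1 the log2 fold change was 12.93 and without normal library 2 it was 2.61. The libraries of Atp5s did not overlap, but normal library 2 at 0 reads sets much of the size.

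Promoter letters and RNA changes were set side by side for the 64 tested members with a RefSeq window. Median log2 fold changes were -0.12 in 10 members with NRF1 letters and -0.20 in 54 without, and -0.59 in 18 with ETS letters against -0.02 in 46 without. They were -0.68 in 12 with YY1 letters against -0.02 in 52 without, and 0.87 in 5 with ERRalpha letters against -0.26 in 59 without. When the window was shortened to 150 bases before the start, the ETS medians stayed at -0.59 (18 members) against -0.02 and the others moved. With against without letters these became -0.89 (4) against -0.20 for ERRalpha, -0.34 (8) against -0.10 for NRF1 and -0.42 (11) against -0.03 for YY1. The order of members with and without letters thus turned for ERRalpha and NRF1. Cox8a and Ndufaf8, at 0 reads in BPA, both carry ETS letters near the start, as printed above, and the windows of Sdhaf2 and Ndufs3, whose libraries overlapped, hold them too.

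Other genes that serve the chain were counted from lists of their function. None of their members passed the adjusted threshold in edgeR. Of 20 tested assembly and translation factors outside the symbol rule, 8 were positive and 12 negative, with Ttc19 of complex III higher (1765 and 2096 reads against 958 and 690) and Tmem186 and Uqcc3 lower at an unadjusted p under 0.05. At that threshold, which 7.23% of all tested genes passed as lower and 2.41% as higher, Coq10b and the carrier gene Slc25a20 were also higher and the carrier gene Slc25a13 lower. The citric acid cycle had 7 positive and 12 negative of 19, mitochondrial carriers 4 and 9 of 13, and the coenzyme Q and cytochrome c list 2 and 3 of 5. Regulators of mitochondrial biogenesis had 8 positive and 1 negative of 9, with Nrf1 at 472 and 49 reads in BPA against 66 and 150. Ppargc1a and Esrra were read in normal library 2 alone, at 143 and 21 reads, and were not tested.

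The chain's 13 mRNAs from mitochondrial DNA offered the closest comparison, since their products join the same complexes. Their summed level was 32096 and 44014 CPM in BPA and 25459 and 25421 CPM in normal cells, higher in both BPA libraries. Of 12 tested, 8 had a positive sign. Of these, 3 (mt-Nd2, mt-Nd5 and mt-Nd6) had an unadjusted edgeR p under 0.05, as did 2.41% of all tested genes on the higher side. The 4 negative ones (mt-Co2, mt-Atp8, mt-Atp6 and mt-Nd4l) were each lower in both BPA libraries. The most read of these, mt-Co2, held 73 and 66 reads in BPA against 294 and 385. The sum leans on the most read mRNAs, such as mt-Nd2 (73174 and 67311 reads against 72053 and 35129). The share of reads of the whole nuclear-encoded set, without TMM scaling, overlapped between the groups. In CPM, the scale of these mitochondrial sums, the whole nuclear-encoded set was also higher in both BPA libraries, narrowly so in library 2. Whether the 2 genomes' shares differed in their change was not tested.

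The authors' deposited table of m6A peaks held 14 peaks in 13 member genes, of 3331 peaks in 2295 genes. Its build was read as GRCm39, which the submitters' processing notes name. The table gives the immunoprecipitated fraction (IP) and the input as 1 pooled value per condition in reads-per-million (RPM), so no spread between replicates can be had, and a log2 fold change of IP over input between BPA and normal cells. By the authors' deposited table, 11 of the 14 members' peaks were higher in BPA (78.6%, against 68.8% of all peaks) and 3 were lower. The RPM of each column were whole multiples of a fixed step, within 0.1 of a step, in 100% of the peaks, so the number of steps, read here as reads, could be counted. The BPA input held under 20 reads in 11 of the 14 peaks (78.6%, against 53.8% of all peaks), and 10 of the 11 higher peaks were among them. In the IP itself 7 of the 14 peaks were higher in BPA and 7 lower.

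**Figure D5:**
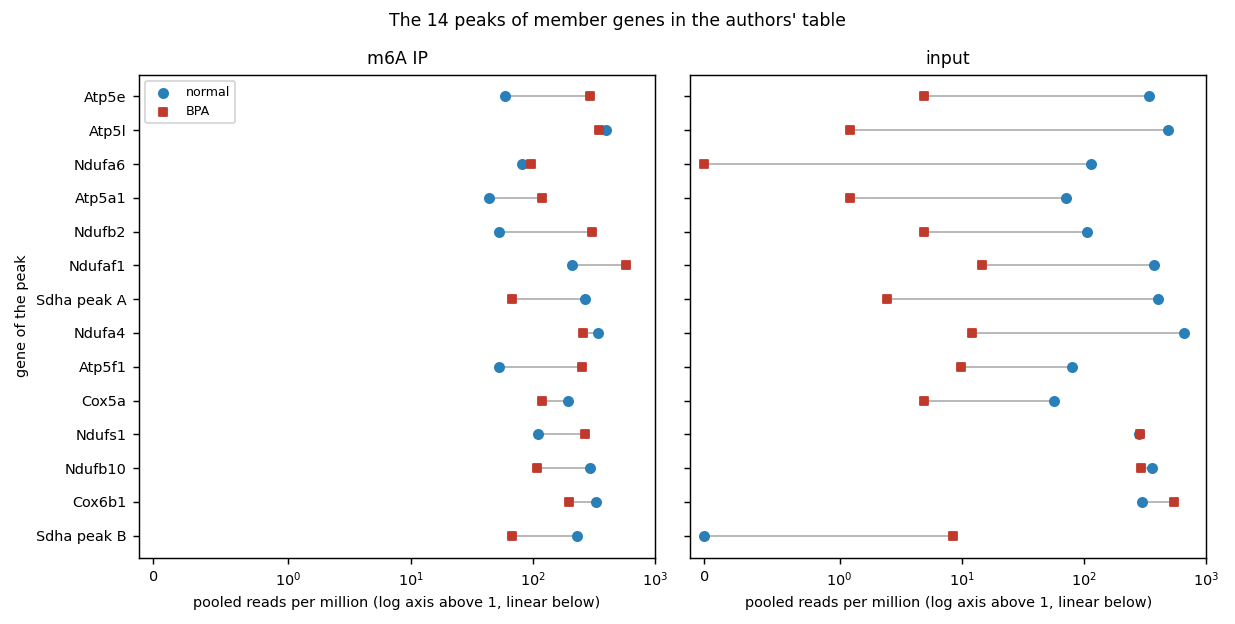
Pooled RPM in the m6A IP (left) and the input (right) of the 14 peaks of member genes, for normal cells (blue circles) and BPA cells (red squares); the x axis is logarithmic above 1 and linear below. The IP values of the conditions differ by at most 5.78 times (Ndufb2), while the BPA input of 11 peaks lies far to the left, below 20 reads.

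Peaks of the ATP synthase had almost no BPA input. At the Atp5e peak (chr2:174302940-174302964, minus strand), the IP held 59.2 RPM in normal and 293 RPM in BPA cells and the input 343 and 4.89 RPM, the latter 4 reads. The deposited log2 fold change was 9.22. At the Atp5l peak (chr9:44824730-44824754, minus strand), the IP held 394 and 351 RPM and the input 489 and 1.22 RPM, the latter 1 read, for a deposited log2 fold change of 9.21. The Atp5l fold thus came with an IP value that was lower in BPA than in normal cells.

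The Atp5a1 peak (chr18:77870360-77870484, plus strand) held 43.7 and 120 RPM in the IP with 1 read of BPA input, and the Atp5f1 peak (chr3:105851162-105858910, minus strand, 2 blocks) 53.3 and 255 RPM with 8 reads. Their deposited log2 fold changes were 8.05 and 6.07. The IP column was 2.735 and 4.78 times as high in BPA, and both BPA inputs were small.

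Complex I peaks were mixed in the same way. Ndufaf1 (chr2:119490625-119490799, minus strand) held 209 and 582 RPM in the IP with 12 reads of BPA input and a deposited log2 fold change of 6.94. Ndufb2 (chr6:39574268-39575311, plus strand, 2 blocks) held 52.4 and 303 RPM with 4 reads, and 7.73. Ndufa6 (chr15:82234491-82234515, minus strand) held 81.4 and 96.7 RPM with 0 reads, for which the table still gives 8.91. Here the deposited value rests on a denominator listed at 0, so its size has no direct reading.

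Only 3 peaks of members held 20 or more reads in all 4 columns. Ndufs1 (chr1:63200142-63202843, minus strand, 2 blocks) was higher by the deposited log2 fold change of 2.01, with 110 and 267 RPM in the IP over inputs of 281 and 288 RPM. Cox6b1 (chr7:30323957-30324006, minus strand) was lower, at -0.81, with 326 and 199 RPM in the IP and 297 and 544 RPM in the input. Ndufb10 (chr17:24941409-24941433, minus strand) was lower, at -0.38, with 296 and 108 RPM over 358 and 291 RPM. Among these 3, then, the direction was not shared.

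The deposited log2 fold changes lie 0.78 above the plain log2 ratio of IP over input in BPA to that in normal cells, measured where every column held 100 reads or more (1016 peaks). For Ndufb10 and Cox6b1 that plain ratio is therefore further below 0 than the deposited value. Sdha had 2 peaks with opposite signs: one (chr13:74472365-74475084, minus strand, 2 blocks) had a deposited log2 fold change of 6.16 with 2 reads of BPA input, and the other (chr13:74471965-74471989) -6.26 with 0 reads of normal input. In both, the IP was lower in BPA, at 67.0 RPM against 268 and 229 RPM. The remaining higher peaks, in Cox5a (chr9:57439070-57439608, plus strand, 2 blocks) and Ndufa4 (chr6:11900541-11900565, minus strand), had 4 and 10 reads of BPA input and were lower in the BPA IP.

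Input at a peak and gene counts come from the same RNA-seq, per the design text, but not on the same scale: the step of the RPM columns gives a total of 818212 for the BPA input and 1703692 for the normal input, far below the 6305121 to 10455643 reads of each count library. The values are therefore set side by side without a comparison of size. For Atp5e and Cox5a both were low in BPA, with 4 reads or fewer over the gene in each library. For Atp5a1 the gene held 4320 and 1068 reads in the BPA libraries while the peak held 1 read of pooled BPA input. Ndufa4 held 2843 and 311 reads over the gene and 10 at the peak. Exon, intron or UTR positions of the peaks are not analysed here, since the annotation at hand was of GRCm38 and only 1 of 13 members' peaks with a gene span there lay inside it.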

How the data were processed

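Libraries were grouped by their titles. Read counts per Ensembl gene were deposited by the authors as whole numbers; the submitters' processing notes list DESeq2 1.38.3, featureCounts 2.0.1, HISAT2 2.2.1 and fastp 0.20.1, and the builds GRCm39 and GRCh38, without roles. The 4 count columns carry no assay and were taken as the RNA-seq libraries. No source used here states whether counting used strand. Of 12404 gene IDs, 12271 had a symbol in the name table used.

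RPM values per peak were deposited by the authors, pooled within condition, with the log2 fold change of IP over input and its p-value and false discovery rate; no source used here names the peak caller or test. Coordinates are 1-based and were taken as GRCm39: in GRCm38, 360 of 3176 peaks (11.3%) fell within the span of their gene.

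Counts were fitted with edgeR 4.0.16 in R 4.3.3 (TMM, filterByExpr with minimum count 10 and minimum total 15, robust quasi-likelihood F test, Benjamini-Hochberg at 0.05 over all tested genes) and tested on simulated data. SE came from the F statistic, and CPM used TMM-scaled totals. DESeq2 1.42.0, its size factors in edgeR, no filter, genes of at least 1000 reads, a replicate block and leaving out each library were alternatives; edgeR's legacy quasi-dispersion was added after seeing the data. Floors (3 counts) and 95% intervals cover counting error only. Promoters came from RefSeq. The members and gene lists were chosen with earlier results of these data known. Named were the 4 most read structural members per complex, members with an unadjusted p under 0.05, 0 reads in a group or a peak, paralogs and isoforms, and assembly factors; Ndufs7, Ndufs8, Ndufa2, Ndufa13, Ndufb8, Ndufc1, Ndufs4, Ndufs6, Cyc1, Cox6c2, Atp5c1, Atp5h, Atp5j2 and Atp5o were chosen after their values were seen. One member is counted in the totals and not reported here by itself.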

Additional observations from a re-analysis of the deposited data

How the results depend on the processing

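Of 398 values of the 43 tested named members under the alternatives, 353 kept sign and side of the threshold, 3 passed it (Atp5d with DESeq2, Atp5s and Ndufaf2 without BPA library 1) and 42 changed sign; 22 members never changed sign. The block by replicate number left 2 members with an unadjusted edgeR p under 0.05 and 0 genes called. Nothing in the labels says whether equal replicate numbers pair libraries across the groups. The replicate differences of the groups had r = -0.000963 over 8645 genes. Since libraries of a group differed widely, this value cannot exclude a pairing. DESeq2 called 264 genes. The 7 members with an unadjusted p under 0.05 became 3 with no filter, 13 with DESeq2, 1 among genes of at least 1000 reads and 11 with the legacy quasi-dispersion, and 0 to 13 on leaving out a library, where 0 to 234 genes were called and the members' median ran from -1.10 to -0.0323. In the authors' deposited table, 1 peak was higher among those with 20 reads in each column, and 1 was lower at an absolute log2 fold change of at least 1.

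Signs turned with DESeq2's size factors for Atp5b (0.0682) and Ndufv1 (0.14); with DESeq2 for Atp5b (0.0666), Atp5j (0.0847), Ndufa6 (0.25) and Ndufv1 (0.13); with no filter for Ndufv1 (0.0678); among genes of at least 1000 reads for Ndufa5 (-0.16) and Ndufs3 (-0.16); and with the legacy quasi-dispersion for Ndufa6 (0.14). On leaving out each library in turn the log2 fold change ran from -1.11 to 0.22 for Atp5a1, from -0.25 to 0.20 for Atp5b, from -0.59 to 1.22 for Atp5g1, from -12.97 to 0.36 for Atp5g2, from -1.05 to 0.54 for Atp5j, from -4.84 to 3.05 for Atp5l, from -5.75 to 1.53 for Cox4i1, from -0.90 to 3.47 for Cox6a1, from -0.89 to 0.59 for Cox7a2l, from -1.38 to 1.40 for Ndufa4, from -0.00867 to 0.44 for Ndufa5, from -6.54 to 1.03 for Ndufa6, from -1.09 to 1.10 for Ndufa8, from -1.97 to 0.85 for Ndufaf1, from -5.15 to 10.96 for Ndufb2, from -0.17 to 0.60 for Ndufs3, from -0.36 to 0.41 for Ndufv1, from -0.0444 to 0.83 for Sdha, from -4.38 to 8.40 for Sdhb, from -0.47 to 0.68 for Uqcrc1 and from -0.90 to 0.85 for Uqcrfs1. The cause was not tested; a group then rests on 1 library, assumed to vary like the other group.

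Depth limits the thinly read members: under 20 reads of BPA input lay behind 11 of 14 peaks, and a gene at 0 reads is bounded by the floor alone.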
